A study of Mus musculus with 9 samples.

Results

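The genes described here make, break down and sense prostaglandins: *Ptgs1*, *Ptgs2*, *Ptges*, *Ptgis*, *Pla2g4a*, *Hpgd*, *Ptger2*, *Ptger3*, *Ptger4* and *Ptgfr*, called the members below. Every probe set (a group of short probes on the array that reads 1 transcript) whose annotation names only 1 of these genes was taken, which gave 19 of the 45037 probe sets on the array. They read 9 of the 10 genes. No probe set carried the name of *Ptgs1* alone, so this gene, which encodes the constitutive cyclooxygenase, was not analysed here.

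Prostaglandins are short-lived lipid signals that act close to where they are made. Cytosolic phospholipase A2 frees arachidonic acid from membranes, the cyclooxygenases turn it into prostaglandin H2, and a terminal synthase for each product then yields prostaglandin E2, prostacyclin or prostaglandin F2 alpha, which cell-surface receptors detect until 15-hydroxyprostaglandin dehydrogenase inactivates the ligand. In the mouse uterus this pathway is known for its part in blastocyst attachment, vascular permeability, decidualization and contraction of the muscle wall.

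Whole uteri were collected on gestation day (GD) 3.5, before the embryo attaches, and their RNA was hybridized to 9 Affymetrix Mouse Genome 430 2.0 arrays, 3 for each of 3 groups. Control mice carried floxed alleles without recombination (*Mig-6* f/f, with or without *Erbb2* f/f, and the labels do not say which array is which). *Mig-6* d/d mice were *Pgr* cre/+ *Mig-6* f/f and lacked *Mig-6*, a brake on ERBB receptor signalling, in cells that express the progesterone receptor, and the double knockout, *Mig-6* d/d *Erbb2* d/d, lacked the receptor tyrosine kinase gene *Erbb2* in the same cells as well. The methods describe adult females on a mixed C57BL/6 and 129P2/OlaHsd background, mated with C57BL/6 males, whereas the labels give an age of 2 weeks for all 9 arrays, and no group was given a drug or hormone. Both knockout groups carried the *Pgr* cre allele and control mice did not, so cre and deletion cannot be told apart. Each genotype's RNA came from a pool of several mice, and it was not stated if arrays of 1 group hold separate pools, so p-values measure the spread between these arrays, which may be technical. The comparisons ask whether loss of *Mig-6* altered uterine expression of these genes and whether loss of *Erbb2* as well altered it again.

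The targeted genes were read first. *Errfi1*, the gene symbol of *Mig-6*, read 454, 564 and 286 in the control arrays, 15.1, 15.96 and 255 in *Mig-6* d/d and 76.1, 29.8 and 40.3 in the double knockout (intensity). At *Errfi1* the library labelled as replicate 3 of *Mig-6* d/d thus lay near control and not near its own group. Its 11 epithelial marker genes, read below, summed to 12059.8, above replicates 1 (10543.5) and 2 (7944.7) of *Mig-6* d/d and above the control range of 3031 to 5446.7. It is called by its label throughout. With this library included, *Errfi1* differed by -3.41 ± 0.90 (log2, SE) in *Mig-6* d/d against control (limma adjusted p = 0.0719). By the rule given below, *Errfi1* was not called in that comparison. *Erbb2* read 29.4, 36.7 and 45.7 in control, 46.6, 39.5 and 44.5 in *Mig-6* d/d and 18.3, 9.88 and 18.5 in the double knockout, a log2 difference of -1.54 ± 0.24 (SE) between the knockouts (limma adjusted p = 0.00649). Array medians ran from 7.87 to 8.24 over the 9 arrays. Many probe sets below lie near or under that level, and signal over background could not be judged because no detection call was used here. Values are deposited linear intensities, differences between the knockouts are double knockout minus *Mig-6* d/d, and precision is limited by having 3 arrays a group.

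Among the members read well above the array medians, the arrays of the 2 knockout groups did not overlap for *Ptgis*, *Ptger3*, *Hpgd* and *Pla2g4a*, and a promoter was on hand for the last 3. These promoters are printed here because these members stood apart between the knockouts although none was called there. Of all probe sets 26.9% stood apart in this way. Each sequence runs from 250 bases before to 50 bases after the start site from RefSeq (build GRCm38.p6). *Ptger3* lies on the plus strand at chr3:157566626-157566925, *Hpgd* on the plus strand at chr8:56294302-56294601 and *Pla2g4a*, at the upstream of its 2 listed start sites, on the minus strand at chr1:149961241-149961540. The start site used for *Ptger3* lies downstream of the first base of the gene, 157566821, so its positions below refer to that inner site. Capitals mark matches to a searched motif, and all other bases are in lower case.
Ptger3: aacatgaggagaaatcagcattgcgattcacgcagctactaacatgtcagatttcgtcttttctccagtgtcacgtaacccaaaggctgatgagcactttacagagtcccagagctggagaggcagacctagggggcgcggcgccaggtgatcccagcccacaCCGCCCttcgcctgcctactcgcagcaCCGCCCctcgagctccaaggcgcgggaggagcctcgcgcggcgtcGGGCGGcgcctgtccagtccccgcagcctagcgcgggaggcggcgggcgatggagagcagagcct
Hpgd: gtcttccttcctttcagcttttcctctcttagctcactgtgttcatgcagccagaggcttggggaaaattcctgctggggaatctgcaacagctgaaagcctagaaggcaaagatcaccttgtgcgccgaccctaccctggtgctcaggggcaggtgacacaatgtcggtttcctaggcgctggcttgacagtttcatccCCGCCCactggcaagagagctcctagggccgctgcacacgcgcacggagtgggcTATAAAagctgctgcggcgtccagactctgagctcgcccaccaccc
Pla2g4a: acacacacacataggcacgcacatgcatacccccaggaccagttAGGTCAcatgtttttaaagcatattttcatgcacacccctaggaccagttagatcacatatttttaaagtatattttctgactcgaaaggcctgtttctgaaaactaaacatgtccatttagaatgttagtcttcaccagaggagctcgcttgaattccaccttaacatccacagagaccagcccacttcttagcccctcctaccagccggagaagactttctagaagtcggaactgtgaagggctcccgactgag
*Ptger3* held the GC box GGGCGG 3 times, at -87 and -60 on the opposite strand and at -15 on the same strand, where positions give the first base relative to the start site. *Hpgd* held TATAAA at 5, just after the start site, and a GC box at -50 on the opposite strand. *Pla2g4a* held the nuclear receptor half-site AGGTCA at -206. None of these matches overlapped another. Both strands were searched, and of 32851 promoters of the same length 35.7% held GGGCGG, 13.6% held TATAAA and 16.3% held AGGTCA. The other motifs searched, with their shares, were CCAAT (37.4%), TGACGTCA (1.79%), TGANTCA (7.81%) and TGTTCT (19%), and none of them was found in the 3 printed windows. A promoter entry was matched for 9 of the 10 genes, all but *Ptgis*.

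Across the 19 probe sets, loss of *Mig-6* moved none past the test, and neither did loss of both genes. A probe set was called when its Benjamini-Hochberg adjusted p in limma, over all 45037 probe sets, was under 0.05 and its change exceeded 1.5-fold. In *Mig-6* d/d against control 0 of 19 were called, while 2.81% of all probe sets were, and 3 of 19 had an unadjusted p under 0.05, against 18.1% of all. For the double knockout against control 0 of 19 were called, against 0.357% of all, and 1 of 19 had an unadjusted p under 0.05, against 7.63% of all. The targeted genes *Errfi1* and *Erbb2* were not called in these comparisons with control either. A missing call there thus does not show that a gene was unchanged. Between the knockouts 1 of 19 was called, *Ptgis*, which was higher. Of all probe sets 5.13% were called in that comparison and 2.38% were called increased, so the members' share was close to the background. At an unadjusted p under 0.05 there were 8 of 19 (42.1%), against 20.2% of all. The two-sample test of the methods, unadjusted and with the same fold limit, called 1, 0 and 3 of the 19 in the 3 comparisons, where it called 3.99%, 1.17% and 6.51% of all probe sets, and after Benjamini-Hochberg adjustment it called 0 in each.

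The log2 differences of these probe sets were small at the median. In *Mig-6* d/d against control 14 of 19 were negative, against 55.3% of all probe sets, with a median of -0.15, against -0.02 over all. Read at the brightest probe set of each gene, 5 of 9 were negative and 4 positive, and 5 of the 19 probe sets are those of *Ptgfr*. The median of the double knockout against control was 0.06, against 0.00 over all. Between the knockouts 12 of 19 were positive, against 55% of all, with a median of 0.18, against 0.02 over all. Arrays of the 2 groups did not overlap at 5 of 19 probe sets in the first comparison, all lower in *Mig-6* d/d, where 21% of all probe sets were apart in this way. They did not overlap at 1 of 19 in the second comparison, against 11.7% of all. They did not overlap at 9 of 19 between the knockouts, 7 of them higher in the double knockout, against 26.9% of all. The first and last of these comparisons share the *Mig-6* d/d arrays, and probe sets of 1 gene share its transcripts, so these counts are not independent of each other.

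**Figure D1:**
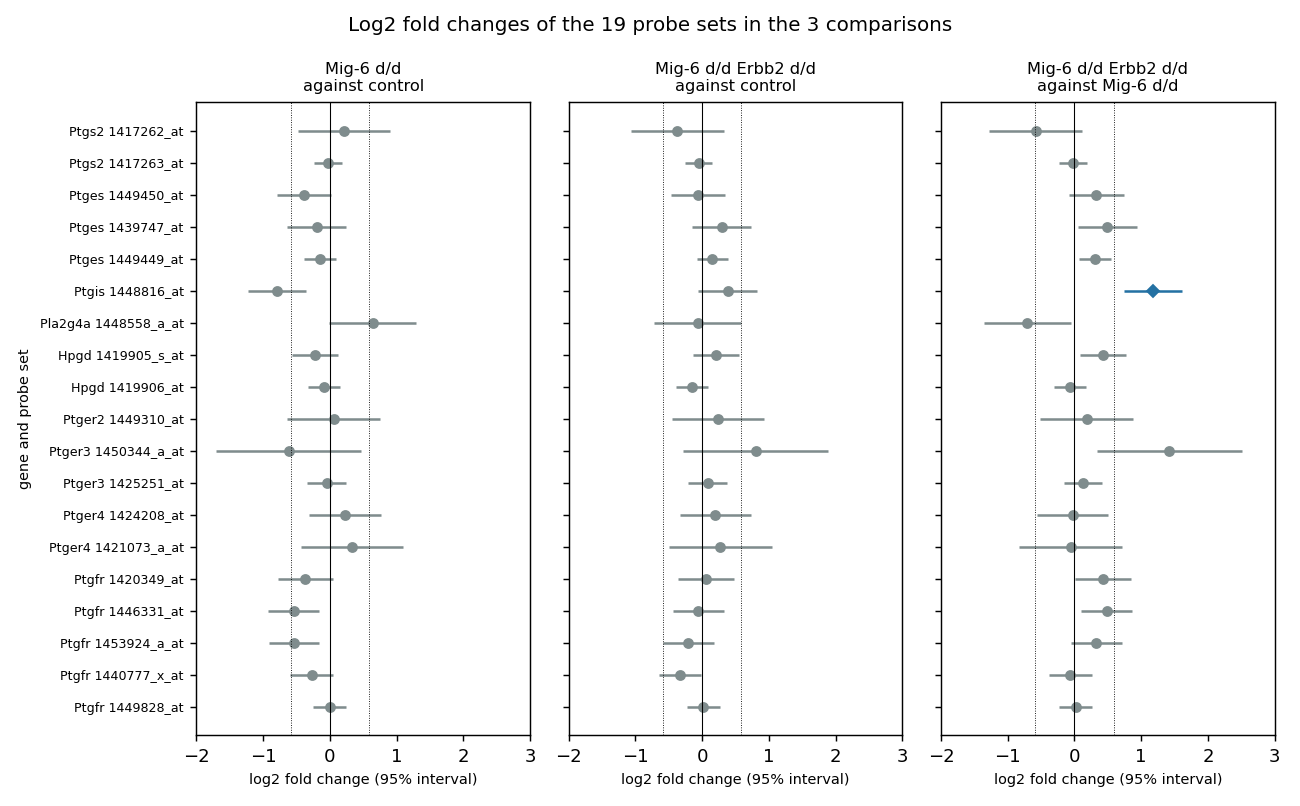
Log2 fold change (horizontal axis) of each of the 19 probe sets (rows) in the 3 comparisons (panels), with bars for the 95% interval from limma. Dotted lines mark the 1.5-fold limit, and the blue diamond marks the called probe set, *Ptgis* between the knockouts at 1.18, while grey points were not called.

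*Pla2g4a* encodes cytosolic phospholipase A2 alpha, which frees the arachidonic acid that all later steps use. Its probe set read 166, 107 and 279 in control, 256, 298 and 245 in *Mig-6* d/d and 138, 210 and 149 in the double knockout. Control replicate 3 lay within the *Mig-6* d/d range and far above the other control arrays, while all 3 double knockout arrays lay under all 3 *Mig-6* d/d arrays. The log2 difference of *Mig-6* d/d from control was 0.64 (95% interval -0.01 to 1.29, adjusted p = 0.286), and that of the double knockout from *Mig-6* d/d was -0.71 (-1.36 to -0.06, adjusted p = 0.206). Control replicates moved the first of these both ways. Without control replicate 2 it was 0.31 (adjusted p = 0.645), and without control replicate 3 it was 1.00 with an adjusted p of 0.0459, which would be called. Without control replicate 3 the second stayed at -0.71 with an adjusted p of 0.0649. The double knockout differed from control by -0.07 (-0.72 to 0.59), and leaving out each array gave -0.40 to 0.29.

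*Ptgs2* encodes cyclooxygenase 2, the inducible enzyme that makes prostaglandin H2. Its brighter probe set stayed near or below the array medians, at 4.09, 3.30 and 9.24 in control, 7.08, 5.70 and 4.81 in *Mig-6* d/d and 3.88, 3.90 and 3.82 in the double knockout. Control replicate 3 was again the high control array, and the double knockout arrays lay under all *Mig-6* d/d arrays. The log2 differences were 0.21 (adjusted p = 0.801), -0.37 (adjusted p = 0.873) and -0.58 (adjusted p = 0.347) for *Mig-6* d/d minus control, double knockout minus control and between the knockouts. Leaving out each array gave -0.09 to 0.66, -0.67 to 0.07 and -0.72 to -0.44, and none was called. The other *Ptgs2* probe set read between 2.79 and 3.20 in all 9 arrays.

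Of the terminal synthases, *Ptges* encodes the inducible microsomal prostaglandin E synthase. Its brightest probe set read 13.9, 15.8 and 13.1 in control, 10.1, 11.6 and 10.8 in *Mig-6* d/d and 12.1, 11 and 18.9 in the double knockout. All *Mig-6* d/d arrays lay under all control arrays, and the double knockout spanned both groups. The log2 difference was -0.39 (95% interval -0.80 to 0.02, adjusted p = 0.298) in *Mig-6* d/d against control and 0.33 (-0.08 to 0.73, adjusted p = 0.370) between the knockouts. The latter was 0.09 without replicate 3 of the double knockout. The 2 other *Ptges* probe sets read between 6.2 and 14.4, with log2 differences between the knockouts of 0.49 (adjusted p = 0.198) and 0.31 (adjusted p = 0.128).

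*Ptgis* encodes prostacyclin synthase, an enzyme of vessel walls and smooth muscle among other cells, and was the called member. It read 213, 229 and 199 in control, 142, 96.0 and 136 in *Mig-6* d/d and 372, 226 and 255 in the double knockout. The *Mig-6* d/d arrays lay under all 6 others, and double knockout replicate 1 was the highest of the 9. Means were 214 ± 14.8 (SD, n = 3) in control, 125 ± 25.1 (n = 3) in *Mig-6* d/d and 284 ± 77.1 (n = 3) in the double knockout. *Ptgis* was 2.26-fold higher in the double knockout than in *Mig-6* d/d, a log2 difference of 1.18 ± 0.20 (SE; 95% interval 0.74 to 1.61; adjusted p = 0.00889). Leaving out each array in turn kept it between 0.97 and 1.32 and called in all 9 cases, and without the library labelled as replicate 3 of *Mig-6* d/d it was 1.25 (adjusted p = 0.0241).

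The difference of *Ptgis* between *Mig-6* d/d and control, -0.80 ± 0.20 (SE; 95% interval -1.23 to -0.36), exceeded 1.5-fold but missed the threshold (adjusted p = 0.0570). It was called under 7 of 22 other settings, among them the fit without double knockout replicate 1 (adjusted p = 0.0370), and without the library labelled as replicate 3 of *Mig-6* d/d it was -0.87 (adjusted p = 0.110). Against control the double knockout differed by 0.38 (-0.06 to 0.82, adjusted p = 0.730), and without double knockout replicate 1 this value was 0.17.

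The tissue is a mixture, and in RNA of whole uterus fewer cells of a type and less RNA per cell cannot be told apart. Values of this kind do not reach 0 (the lowest on any array was 2.11), so markers were read by level. *Epcam* of epithelium ran from 237 to 1932 over the 9 arrays, *Col3a1* of stroma from 6898 to 8416 and *Acta2* of smooth muscle from 4635 to 6941, all far above the array medians. Summed intensity of 10 smooth muscle markers ran from 13967.8 to 18318.2 in control, 9208.7 to 12813.8 in *Mig-6* d/d and 16600.1 to 20424.4 in the double knockout. The 10 endothelial markers summed to 1135.5 to 1318.7, 664.5 to 864.9 and 1005.8 to 1283 in the same order, and the 10 stromal markers to 24000.6 to 28041.4, 19852 to 24123 and 26803.7 to 28403.3. The 11 epithelial markers went the other way, at 3031 to 5446.7, 7944.7 to 12059.8 and 2760 to 3894.6. Control replicate 3 was the highest control array for epithelium (5446.7). It was the lowest control array for smooth muscle (13967.8), endothelium (1135.5) and stroma (24000.6).

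Between the knockouts, where *Ptgis* differed by 1.18, the median log2 difference was 0.92 over the smooth muscle markers (5 of 10 called higher), 0.59 over the endothelial markers (4 of 10 called higher), 0.48 over the stromal markers (2 of 10 called higher) and -1.82 over the epithelial markers (8 of 11 called lower). In *Mig-6* d/d against control, where *Ptgis* differed by -0.80, the medians were -0.64, -0.67, -0.47 and 1.5 in the same order, with 1, 3 and 2 called lower and 6 epithelial markers called higher. Of all genes 7.48% were called between the knockouts, with a median of 0.03, and 4.35% in *Mig-6* d/d against control, with a median of -0.03. None of these markers was called in the double knockout against control. Sums of the other lists were 863.7 to 1198.5, 800.6 to 1014.2 and 968.9 to 1392.9 for 8 leukocyte markers, 155 to 214, 127.5 to 146.9 and 166.3 to 202.9 for 4 mesothelial markers, and 59.8 to 74.4, 59.2 to 114.5 and 100.8 to 119.2 for 6 markers of ovary and oviduct. In the last list *Ovgp1* alone had means of 20.2, 36.3 and 62.3. Of the leukocyte markers 1 was called lower in *Mig-6* d/d against control. Of the ovary and oviduct markers 1 was called higher between the knockouts. This was *Inha* and not *Ovgp1*, with means of 8.79, 5.54 and 9.36 in the same order of groups, near the array medians. Some markers of these lists lay under the array medians, such as *Itgam* of leukocytes (mean 4.59), *Lrrn4* of mesothelium (4.73) and *Zp3* of ovary (4.92). The part of these cell types in the difference of *Ptgis*, or of any other member, was not tested.

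**Figure D2:**
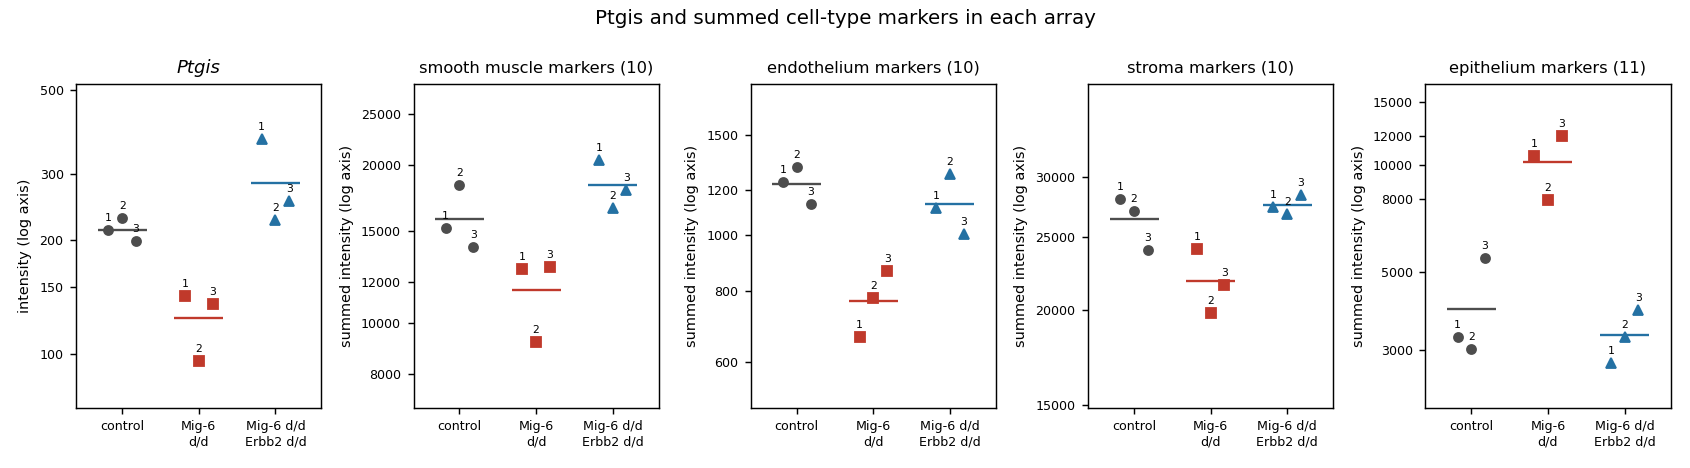
Intensity of *Ptgis* and the summed intensity of the markers of 4 cell types in each array (vertical log axes), by group, with the replicate number at each point and a line at the group mean. The 3 *Mig-6* d/d arrays are the lowest for *Ptgis*, smooth muscle and endothelium and the highest for epithelium.

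Over the 9 arrays, the genes with the smallest root mean square difference from *Ptgis* after centring each on its mean log2 intensity were *Timp2* (0.13), *Emilin1* (0.14) and *Kcnmb1* (0.14), among 18192 genes with a median of 0.55. *Timp2* encodes an inhibitor of matrix metalloproteinases and read 822, 1057 and 884 in control, 569, 437 and 605 in *Mig-6* d/d and 1293, 899 and 1006 in the double knockout. *Emilin1*, a glycoprotein of elastic fibres, read 299, 389 and 277, then 211, 147 and 197, then 439, 301 and 356 in the same order of groups. *Kcnmb1*, a subunit of the calcium-activated potassium channel of smooth muscle, read 20.6, 21.4 and 19.8, then 15.5, 8.86 and 14.1, then 30.9, 20.2 and 29.3. In all of them, as in *Ptgis*, *Mig-6* d/d replicate 2 was the lowest array and double knockout replicate 1 the highest. These genes were picked for likeness to *Ptgis* over these same 9 arrays, so the shared extremes are no separate result.

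*Hpgd* encodes 15-hydroxyprostaglandin dehydrogenase, which starts the breakdown of prostaglandins. Its brighter probe set read 109, 80.6 and 90.7 in control, 98.4, 65.8 and 78.5 in *Mig-6* d/d and 104, 110 and 108 in the double knockout. The double knockout arrays lay close together above all *Mig-6* d/d arrays and overlapped control. The log2 difference was -0.22 (95% interval -0.56 to 0.13, adjusted p = 0.529) in *Mig-6* d/d against control, 0.21 (-0.14 to 0.55, adjusted p = 0.843) in the double knockout against control and 0.43 (0.08 to 0.77, adjusted p = 0.145) between the knockouts. On leaving out each array these ran over -0.37 to -0.08, 0.11 to 0.33 and 0.29 to 0.58. The other *Hpgd* probe set read between 4.86 and 6.25 in all arrays.

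**Figure D3:**
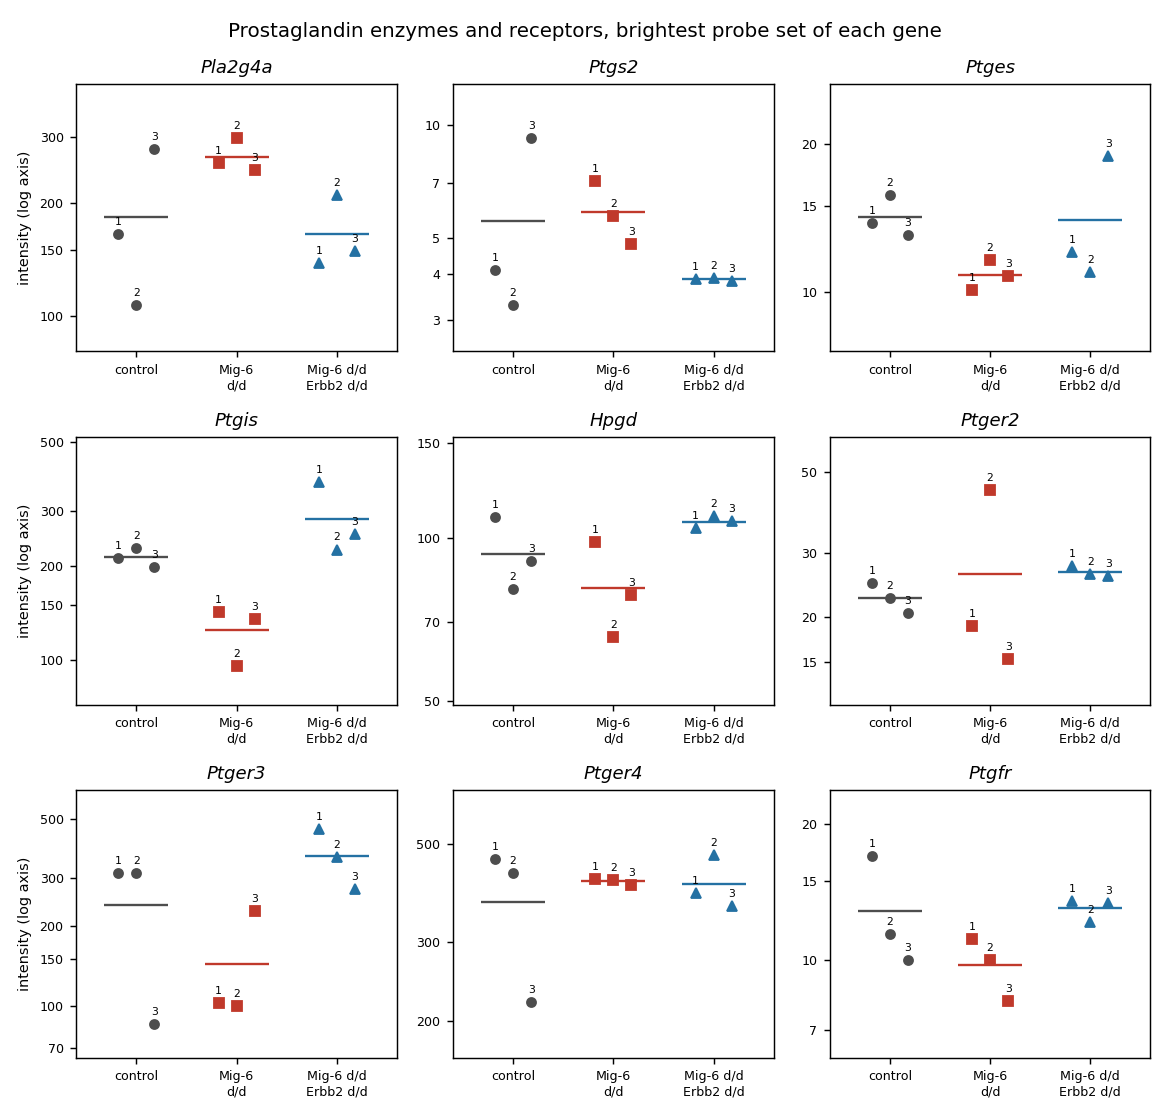
Intensity of the brightest probe set of each of the 9 measured genes in each array (vertical log axes, scaled gene by gene), by group, with the replicate number at each point and a line at the group mean. Control replicate 3 stands apart from the other control arrays for *Pla2g4a* (279), *Ptgs2* (9.24), *Ptger3* (85.7) and *Ptger4* (220), and the *Mig-6* d/d arrays are the lowest for *Ptgis*.

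Of the prostaglandin E2 receptors, EP2 and EP4 raise cyclic AMP and EP3 mainly lowers it. *Ptger2*, which encodes EP2, read 24.8, 22.5 and 20.4 in control, 18.8, 44.7 and 15.3 in *Mig-6* d/d and 27.5, 26.2 and 25.9 in the double knockout. *Mig-6* d/d replicate 2 was the highest of the 9 arrays, while the other two of that group were the lowest. The double knockout arrays lay above all control arrays, by a log2 difference of only 0.24 (95% interval -0.46 to 0.93, adjusted p = 0.929). Against *Mig-6* d/d the difference was 0.18 (-0.51 to 0.88, adjusted p = 0.830), and without *Mig-6* d/d replicate 2 it was 0.65 with an adjusted p of 0.0239, which would be called. *Mig-6* d/d against control gave 0.06 (-0.64 to 0.75, adjusted p = 0.958), and -0.41 (adjusted p = 0.151) without that array. Leaving out each array gave -0.41 to 0.36 in this comparison and -0.13 to 0.65 between the knockouts.

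*Ptger3*, which encodes EP3, had the widest spread of the members. It read 315, 315 and 85.7 in control, 103, 101 and 226 in *Mig-6* d/d and 457, 360.1 and 273 in the double knockout. Control replicate 3 was the lowest of all 9 arrays, and the library labelled as replicate 3 of *Mig-6* d/d, the one in which *Errfi1* was near control, was the high array of its group. All double knockout arrays lay above all *Mig-6* d/d arrays. The log2 difference between them was 1.42 ± 0.49 (SE; 95% interval 0.34 to 2.50), a larger point estimate than that of *Ptgis*, but with an adjusted p of 0.122 it was not called. Without control replicate 3, which enters this comparison only through the shared estimate of spread, the adjusted p was 0.0225, and without the library labelled as replicate 3 of *Mig-6* d/d the difference was 1.80 (adjusted p = 0.0881). *Mig-6* d/d against control gave -0.62 (-1.70 to 0.47, adjusted p = 0.578), and from -1.24 without control replicate 3 (adjusted p = 0.0864) to -0.31 without either of the other two control arrays. The double knockout against control gave 0.80 (-0.28 to 1.88, adjusted p = 0.790), and from 0.18 without control replicate 3 to 1.11 without another control array. The other *Ptger3* probe set read between 3.01 and 4.09 in all arrays.

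*Ptger4*, which encodes EP4, lay at similar levels in the knockouts. Its brighter probe set read 461, 430.1 and 220 in control, 418, 414 and 405 in *Mig-6* d/d and 387, 472 and 362 in the double knockout. All arrays but control replicate 3 lay between 362 and 472. The difference between the knockouts was -0.03 on the log2 scale (95% interval -0.56 to 0.51, adjusted p = 0.971). Against control the differences were 0.23 (-0.31 to 0.76, adjusted p = 0.701) in *Mig-6* d/d and 0.20 (-0.33 to 0.73, adjusted p = 0.920) in the double knockout, and without control replicate 3 both turned sign, to -0.11 and -0.14. The other *Ptger4* probe set read 24.4, 16.1 and 8.40 in control, 18.3, 21.7 and 16.6 in *Mig-6* d/d and 23.6, 19.7 and 12.6 in the double knockout, where replicate 3 was again the lowest control array.

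*Ptgfr* encodes the prostaglandin F2 alpha receptor, which has a part in birth at term. Its 5 probe sets all read between 3.10 and 17.0. The brightest read 17.0, 11.5 and 10.03 in control, 11.1, 10.03 and 8.12 in *Mig-6* d/d and 13.5, 12.2 and 13.4 in the double knockout, where the double knockout arrays lay above all *Mig-6* d/d arrays. Its log2 difference was -0.37 (95% interval -0.78 to 0.05, adjusted p = 0.346) in *Mig-6* d/d against control and 0.43 (0.01 to 0.84, adjusted p = 0.234) between the knockouts, which ran over -0.53 to -0.15 and 0.30 to 0.53 on leaving out each array. At 3 of the other probe sets all *Mig-6* d/d arrays lay under all control arrays, and the largest of these differences were -0.54 (adjusted p = 0.120) and -0.54 (adjusted p = 0.121). Without control replicate 3 these 2 would be called. The remaining probe set differed by 0.00, 0.02 and 0.02 in the 3 comparisons.

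The wider prostaglandin pathway, 4 lists of 49 genes of which 45 were measured, was read at the brightest probe set of each gene. In *Mig-6* d/d against control 3 of 45 genes rose and none fell, against 4.35% of 18193 genes called. For the double knockout against control 0 of 45 were called, against 0.407% of all. Between the knockouts 3 of 45 genes fell and none rose, against 7.48% of all. At an unadjusted p under 0.05 in limma there were 12, 4 and 18 of 45 in the 3 comparisons, against 24%, 7.95% and 26.5% of all genes. Median log2 differences were -0.03, 0.03 and 0.06 in the 3 comparisons, against -0.03, 0.01 and 0.03 over all genes. A list of 14 genes of the other arachidonate branches, all measured, held 1 gene that rose in *Mig-6* d/d against control and 2 that fell between the knockouts.

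The list of other phospholipases and arachidonate supply also holds genes that act on these enzymes or on other lipids, and of its 22 measured genes 2 rose in *Mig-6* d/d, *Acsl4* and *Anxa1*. *Acsl4*, a ligase that attaches coenzyme A to arachidonic acid, read 150, 75.7 and 110 in control, 214, 252 and 239 in *Mig-6* d/d and 108, 185 and 124 in the double knockout. All *Mig-6* d/d arrays lay above all others. The log2 difference from control was 1.12 ± 0.25 (SE; adjusted p = 0.0395), and that of the double knockout from *Mig-6* d/d was -0.79 (adjusted p = 0.0899), not called. Its 2 other probe sets both rose in *Mig-6* d/d, by 0.93 (adjusted p = 0.0345) and 0.74 (adjusted p = 0.0137). Between the knockouts the first of them fell by 0.93 (adjusted p = 0.0218), and the other differed by -0.53 (adjusted p = 0.0270), under 1.5-fold. The mean over the probe sets of *Acsl4* would be called lower there as well (-0.75, adjusted p = 0.0215). The call on the brightest probe set was lost on leaving out any of control replicates 2 and 3, the 3 *Mig-6* d/d arrays and double knockout replicate 3, with log2 differences of 0.87 to 1.19 and adjusted p of 0.0568 to 0.112. Without control replicate 2 the difference between the knockouts would be called (-0.79, adjusted p = 0.0440).

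*Anxa1*, which encodes annexin A1, a binding protein that restrains phospholipase A2, read 1525, 1432 and 1454 in control, 2072, 2377 and 2279 in *Mig-6* d/d and 1446, 1594 and 1353 in the double knockout. It rose by 0.61 ± 0.10 (SE; adjusted p = 0.0145) in *Mig-6* d/d and fell by 0.62 ± 0.10 (adjusted p = 0.00781) between the knockouts, just past the 1.5-fold limit. The first call was lost without control replicate 2 (0.59, adjusted p = 0.0525), without *Mig-6* d/d replicate 2 (0.56, under 1.5-fold) and without the library labelled as replicate 3 of *Mig-6* d/d (0.59, adjusted p = 0.0556), and the second slipped under 1.5-fold on leaving out *Mig-6* d/d replicate 2 (-0.57) or replicate 3 of the double knockout (-0.56). The other *Anxa1* probe set read between 3.68 and 4.51 in all arrays, under the array medians. Averaged over the probe sets of the gene, this one included, the differences were 0.31 and -0.27.

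*Pla2g7*, which encodes the phospholipase that hydrolyses platelet-activating factor, was the other called gene of this list. It read 63.1, 51.6 and 120 in control, 127, 101 and 165 in *Mig-6* d/d and 24.5, 24.7 and 29.3 in the double knockout. The double knockout arrays lay under all 6 others. Between the knockouts it fell by 2.30 ± 0.28 (log2, SE; adjusted p = 0.00279), and the double knockout differed from control by -1.49 (adjusted p = 0.0739). The difference of *Mig-6* d/d from control was 0.81 (adjusted p = 0.153). Without control replicate 3 this value was 1.17 and would be called (adjusted p = 0.0188), and without control replicate 2 the double knockout would be called lower than control (-1.74, adjusted p = 0.0452).

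Among 9 other measured terminal synthases and reductases, *Cbr2*, a carbonyl reductase that can act on prostaglandins, was the called gene. It read 442, 421 and 263 in control, 3523, 2312 and 2765 in *Mig-6* d/d and 637, 480.3 and 1294 in the double knockout. Its rise in *Mig-6* d/d was 2.95 ± 0.34 on the log2 scale (SE; adjusted p = 0.00612), it fell by 1.94 ± 0.34 between the knockouts (adjusted p = 0.00984), and the double knockout lay above control in all 3 arrays by 1.01 (adjusted p = 0.436). *Cbr2* was, with epithelial markers, among the genes higher in *Mig-6* d/d, and the part of epithelium in it was not tested.

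None of the 5 genes of transport and breakdown was called in the 3 comparisons, with 0, 0 and 3 at an unadjusted p under 0.05 in limma, where 24%, 7.95% and 26.5% of all genes were. *Slco2a1*, the prostaglandin uptake transporter, read 41.6, 48.6 and 49.9 in control, 34.5, 29.4 and 35.8 in *Mig-6* d/d and 50.5, 39.7 and 122 in the double knockout. Double knockout replicate 3 was the highest of the 9 arrays at this and at the 3 other *Slco2a1* probe sets, and the difference between the knockouts was 0.92 (95% interval 0.19 to 1.65, adjusted p = 0.138). *Abcc4*, an exporter of prostaglandins, read 164, 136 and 197, then 198, 259 and 205, then 153, 192 and 111 in the same order of groups, with -0.56 between the knockouts (-1.02 to -0.10, adjusted p = 0.149).

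None of 9 other receptors and partners was called either, with 2 of 9 at an unadjusted p under 0.05 in each comparison, against the same shares of all genes. *Tbxa2r*, the thromboxane receptor gene, read 19.9, 27.6 and 26.8 in control, 20.8, 15.3 and 17.3 in *Mig-6* d/d and 23.6, 20.6 and 23.4 in the double knockout, with -0.48 in *Mig-6* d/d against control (95% interval -0.82 to -0.13, adjusted p = 0.124). *Rxra*, the retinoid X receptor that pairs with PPAR receptors, read 47.4, 48.0 and 45.5, then 42.5, 37.0 and 46.4, then 56.3, 56.7 and 53.0. Its difference between the knockouts, 0.41 ± 0.10 (SE), had an adjusted p of 0.0432 but stayed under 1.5-fold.

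In the other arachidonate branches, *Alox5ap*, which presents arachidonate to 5-lipoxygenase, read 170, 168 and 154 in control, 275, 292 and 295 in *Mig-6* d/d and 169, 146 and 204 in the double knockout. It rose by 0.81 ± 0.12 (SE; adjusted p = 0.0122) in *Mig-6* d/d and fell by 0.75 ± 0.12 (adjusted p = 0.00847) between the knockouts, and the double knockout differed from control by 0.06. *Cyp2j6*, a cytochrome P450 of the epoxygenase family, read 11.8, 10.4 and 10.5, then 18.2, 13.4 and 17.5, then 10.1, 8.63 and 12.3 in the same order of groups. It differed by 0.58 (adjusted p = 0.0709) in *Mig-6* d/d against control and fell by 0.67 (adjusted p = 0.0297) between the knockouts. This second call was lost without *Mig-6* d/d replicates 1 or 3 and without double knockout replicates 1 or 2 (adjusted p of 0.0958 to 0.111), and without *Mig-6* d/d replicate 2 the first would be called (0.72, adjusted p = 0.0415). The other *Cyp2j6* probe set read between 7.75 and 13.1 and differed by 0.38 (adjusted p = 0.205) and -0.22 (adjusted p = 0.474) in the same comparisons. Averaged over the probe sets of the gene, the second difference was not called (-0.45, adjusted p = 0.0786).

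**Figure D4:**
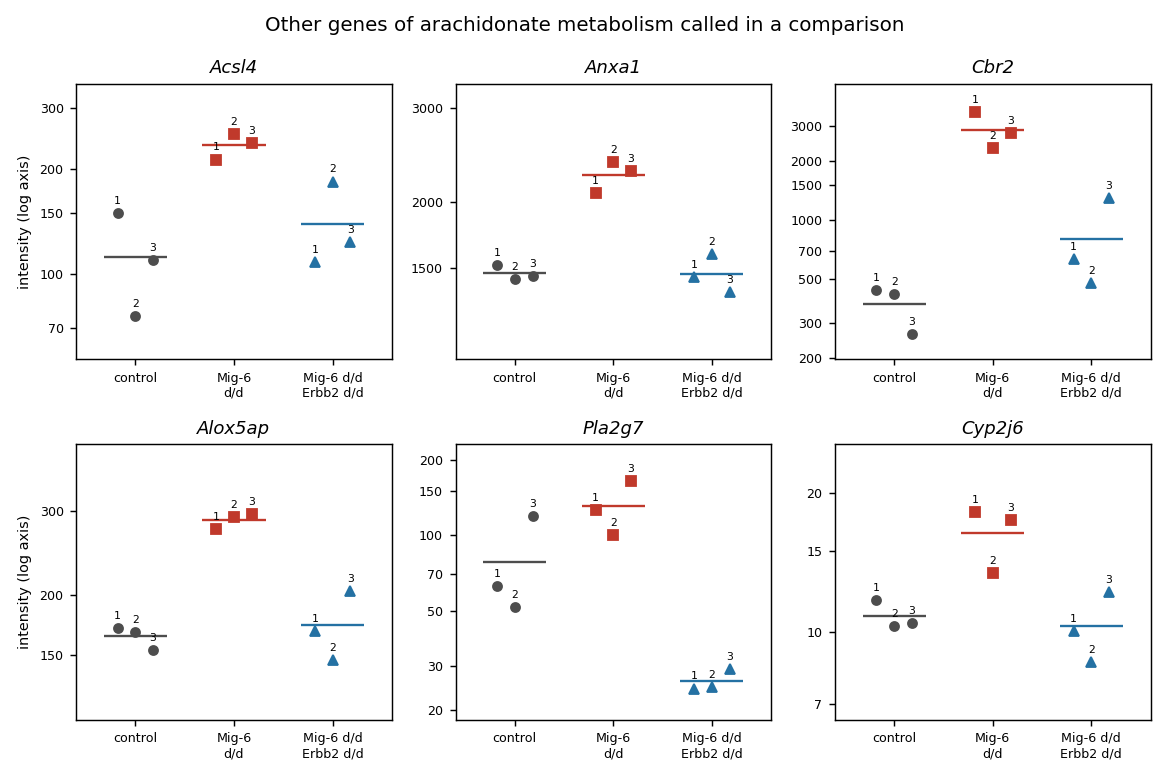
Intensity of the 6 other genes of arachidonate metabolism called in a comparison, in each array (vertical log axes, scaled gene by gene), by group, with the replicate number at each point and a line at the group mean. *Mig-6* d/d arrays lie above both other groups for *Acsl4*, *Anxa1*, *Cbr2*, *Alox5ap* and *Cyp2j6*, and the double knockout arrays lie lowest for *Pla2g7*, at 24.5 to 29.3.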

How the data were processed

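Gene expression was measured in whole uteri at GD 3.5 on 9 arrays. The authors normalized the arrays by quantile normalization in Bioconductor, the submitters' processing notes name RMA without a version, and the deposited values are linear intensities (2.11 to 11548.76); log2 was taken here. Groups came from the labels. Of 45037 probe sets 34945 had 1 gene symbol in the platform annotation, 932 had several and 9160 were unnamed here; RefSeq (GRCm38.p6) held the symbols of 34741 and changed 0.

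All probe sets were fitted in R 4.3.3 with limma 3.58.1 (lmFit, eBayes; statmod 1.5.0 for robust fits), with 3 groups in 1 model, two-sided tests and Benjamini-Hochberg adjustment, after the code was tested on simulated data. Differences are first-named minus second-named group. Named genes were all members, pathway genes called in any comparison (in a list without a call, the 2 with the largest difference), the targeted genes, and the 3 genes most like a called member. Members and lists were chosen with earlier results of these data known. The study's tables of fold changes were not used. Alternatives were other filters, normalizations, variance models, probe set summaries, the t-test named in the methods, a replicate block and leaving out each array. Plots used matplotlib 3.10.9 in Python 3.11.15.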

Additional observations from a re-analysis of the deposited data

How the results depend on the processing

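The counts of called member probe sets were recomputed under 22 alternatives. For *Mig-6* d/d against control the count of 0 became 1, *Ptgis* each time, with dim probe sets left out, with quantile normalization applied again, with trended and robust variance, with the mean over the probe sets of a gene (adjusted p of 0.0365 to 0.0431) and with the unadjusted t-test of the methods. Leaving out each array gave 0 to 3, where the 3, without control replicate 3, were *Pla2g4a* and 2 probe sets of *Ptgfr*. For the double knockout against control it was 0 under all 22. Between the knockouts the count of 1 became 3 (*Ptgis*, *Ptger3* and *Pla2g4a*) when only the 6 arrays compared entered the fit and with the unadjusted t-test, became 0 with the t-test after Benjamini-Hochberg adjustment, and ran from 1 to 2 on leaving out each array, the added probe set being *Ptger3* without control replicate 3 and *Ptger2* without *Mig-6* d/d replicate 2. *Ptgis* was called in 21 of 22 alternatives in this comparison. The labels do not say if replicate numbers pair the arrays. Same-numbered deviations from the group means correlated at -0.13 to 0.20, and 1, 2 and 3 of 6 arrays correlated best with their own number. With 3 arrays a group these values cannot decide if the arrays were paired. With a replicate block the counts of called members were 1, 0 and 1, the first being *Ptgis* (adjusted p = 0.0422), *Acsl4* was no longer called in *Mig-6* d/d against control (adjusted p = 0.0626), and *Pla2g7* was called against control in *Mig-6* d/d (adjusted p = 0.0413) and in the double knockout (adjusted p = 0.0143).

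Over 16 settings that kept limma, all probe sets and the fold limit, 217 to 1114 rose and 130 to 648 fell in *Mig-6* d/d against control (772 and 493 as reported), 53 to 105 and 30 to 85 in the double knockout against control (89 and 72), and 502 to 1293 and 611 to 1594 between the knockouts (1074 and 1238). The t-test of the methods called 1029 and 768, 262 and 267, and 1380 and 1554 before adjustment, and 0, 0 and 35 probe sets in all after it (13 higher, 22 lower). *Cbr2*, *Alox5ap* and *Pla2g7* kept their calls under every alternative but that adjusted t-test, and *Anxa1* missed the 1.5-fold limit when quantile normalization was applied again (0.56 and -0.58). Signal over background was not judged, which limits *Ptgs2*, *Ptges* and *Ptgfr* most, and 3 arrays a group limit the precision of all values.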
